A study of Mus musculus with 2 samples.

Results

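The cytosolic ribosome makes the proteins of the cytoplasm, and its proteins are encoded by a family of small, abundantly transcribed genes. Those named Rpl or Rplp belong to the large subunit, which joins amino acids, and those named Rps, with Rpsa, to the small subunit, which reads the messenger RNA. Here 46 such genes of mouse liver, out of 18193 genes with a probe set of their own, are described in Yap+/+ and Yap+/- mice. They are the genes whose symbol is that of a cytosolic ribosomal protein or a close copy and for which the platform annotation gives at least 1 probe set with that symbol alone, 24 of the large subunit and 22 of the small. On the Affymetrix array used, a probe set is a group of short probes read as 1 value, and the probe set with the higher mean of both arrays stood for a gene that had several.

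The groups were wild type (Yap+/+) and Yap+/- mice, untreated, on the C57BL/6 strain, at postnatal day 30. Yap+/- mice are heterozygous for Yap1, the gene of the Hippo pathway co-activator YAP. Each array carried RNA pooled from the livers of 5 mice, with 1 array per genotype, so each group is 1 sample, and no difference between the genotypes could be tested. A value is the authors' log2 probe set value, and a difference is Yap+/- minus Yap+/+ on that scale. The labels do not give the sex of the mice.

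Of the 2 Yap1 probe sets, the brighter read 9.40 in the wild-type and 9.24 in the heterozygous pool, the other 6.01 and 5.77. No source used here places these probes relative to the disrupted part of the gene, so they check the labels only weakly. The hepatocyte markers Alb, Apoa1, Ttr, Fgb and Tat were present, with the lowest value, 12.1, for Tat in Yap+/-. Of 14 macrophage markers listed, 13 were found, all with a mean of at least 6, and all 13 were higher in Yap+/-, with a median difference of 0.26 and a summed linear level of 10763 in Yap+/+ and 13414 in Yap+/-. Endothelial markers were mixed, with 6 of 9 measured genes higher and 3 lower, a median difference of 0.15, and sums of 4966 and 5711. The excess of 3-prime over 5-prime signal of control transcripts, a mark of RNA or labelling quality, was 1.37 in Yap+/+ and 1.57 in Yap+/- for beta-actin, and 0.27 and 0.49 for Gapdh. These values moved alongside every difference below, and their part in it was not tested. In bulk tissue, more cells of a type and more RNA per cell cannot be told apart.

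Ribosomal protein messages are known for a run of the pyrimidines C and T at their very start, the terminal oligopyrimidine tract, through which the mTOR kinase and the RNA-binding protein LARP1 set how fast they are translated. The windows below show the bases around the start of genes on which the results turn. Each runs from 15 bases before the annotated RefSeq start through the first 15 bases of the transcript (build GRCm38.p6), with the longest run of C and T in capitals. In Rps6, Rpl35, Rps9 and Rps27 the run spans the start. Rps6, the substrate of the S6 kinases, is shown as a clear example, Rpl35 and Rps27 because they lie on the higher side of the family, and Rps9 because its probe sets disagree. In Rps27l, the copy of Rps27, the run ends before the listed start, and its other listed start has a run of 4. Rpl11, the highest of the members called measured below, has a run of 3, also before the start.
Rps6, chr4:86857353-86857382, minus strand: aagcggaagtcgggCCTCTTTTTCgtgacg
Rpl35, chr2:39005117-39005146, minus strand: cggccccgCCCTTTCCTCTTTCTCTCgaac
Rps9, chr7:3704026-3704055, plus strand: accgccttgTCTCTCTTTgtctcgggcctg
Rps27, chr3:90213634-90213663, minus strand: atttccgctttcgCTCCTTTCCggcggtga
Rps27l, chr9:66946071-66946100, plus strand: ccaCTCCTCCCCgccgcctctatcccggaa
Rpl11, chr4:136053379-136053408, minus strand: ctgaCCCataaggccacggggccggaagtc

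A promoter window was listed for 40 of the 46 genes, 7 of them with several annotated starts. A run of at least 8 C or T in the 30 bases around a start, read on the transcribed strand and lying on either side of the start or across it, was present in 18 of the 40 genes, or 45.0%, against 13.9% of all 27025 genes with a window and 13.4% of the mitochondrial ribosomal protein genes. Over the 300 bases of each window, 250 before the start and 50 after, the letters CCGGAA on either strand, a core recognised by ETS transcription factors, were found in 26 of the 40, or 65.0%, against 16.7% of all genes, 32.5% of the measured genes defined below and 56.7% of the mitochondrial ribosomal protein genes. An annotated start can lie off the true one, so the short run at Rpl11 holds only for the start listed. Measured genes with the run had a median difference of 0.050 (17 genes) and those without it 0.017 (18 genes). The split by CCGGAA was similar, with 0.052 (24 genes) with the letters and 0.0185 (11 genes) without them.

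The letters GGAATG on either strand form the core that TEAD factors, the DNA-binding partners of YAP, recognise. They were found in 5 of the 40 genes, or 12.5%, against 16.6% of all genes, and in no member did they overlap CCGGAA. A match is a description of letters and not a bound site. The windows of 3 of these genes are given, with the match in capitals. Those of Rps27 and Rps24 have the match 111 and 183 bases before the start, and that of Rpl22 has it 5 bases before one of its starts. Rpl22 has a further match, not shown, 36 bases after the same start.
Rps27, chr3:90213742-90213771, minus strand: gcagtcaacgggCATTCCgttgcattcgaa
Rps24, chr14:24490483-24490512, plus strand: acggaaaagaagGGAATGggaaatatacac
Rpl22, chr4:152324419-152324448, plus strand: agcgctgcttctGGAATGttccagctccca
The 4 measured genes with this match had a median difference of 0.039, and the 31 without it 0.021.

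Ribosomal protein genes read almost the same in both pools, with a small lean towards higher values in Yap+/-. A gene is called measured where the mean of its 2 log2 values is 6 or more. Of the 46 genes 41 were measured, 20 of the large subunit and 21 of the small, and 28 of them were higher in Yap+/- and 13 lower, against 48.8% higher among all 9299 measured genes. The median difference was 0.021, beside 0.00 over all measured genes. It was 0.0052, with 25 of 41 higher, after a further quantile normalisation, and 0.046 with the wider choice of probe sets described below. At a threshold of 1.2-fold, 0 members were higher, where the background was 6.02%, and 1 was lower, Rps4l, where the background was 5.45%. No member reached 1.5-fold in either direction, against 1.34% of measured genes, or 2-fold, against 0.323%. The members' differences were also close to each other, with a robust SD of 0.080 against 0.15 over all measured genes, and 29 of the 41 lay within 0.1 of zero, or 70.7%, against 50.6% of all measured genes.

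Bright probe sets scatter less, so the genes with a mean of at least 12 were set apart. Of the 32 members at this level 24 were higher in Yap+/-, with a median of 0.028 and a robust SD of 0.059. Of all 452 genes at this level 46.2% were higher, with a median of -0.0059 and a robust SD of 0.088. Whether the lean is larger than that between 2 pools of the same genotype cannot be told with 1 pool each.

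**Figure D1:**
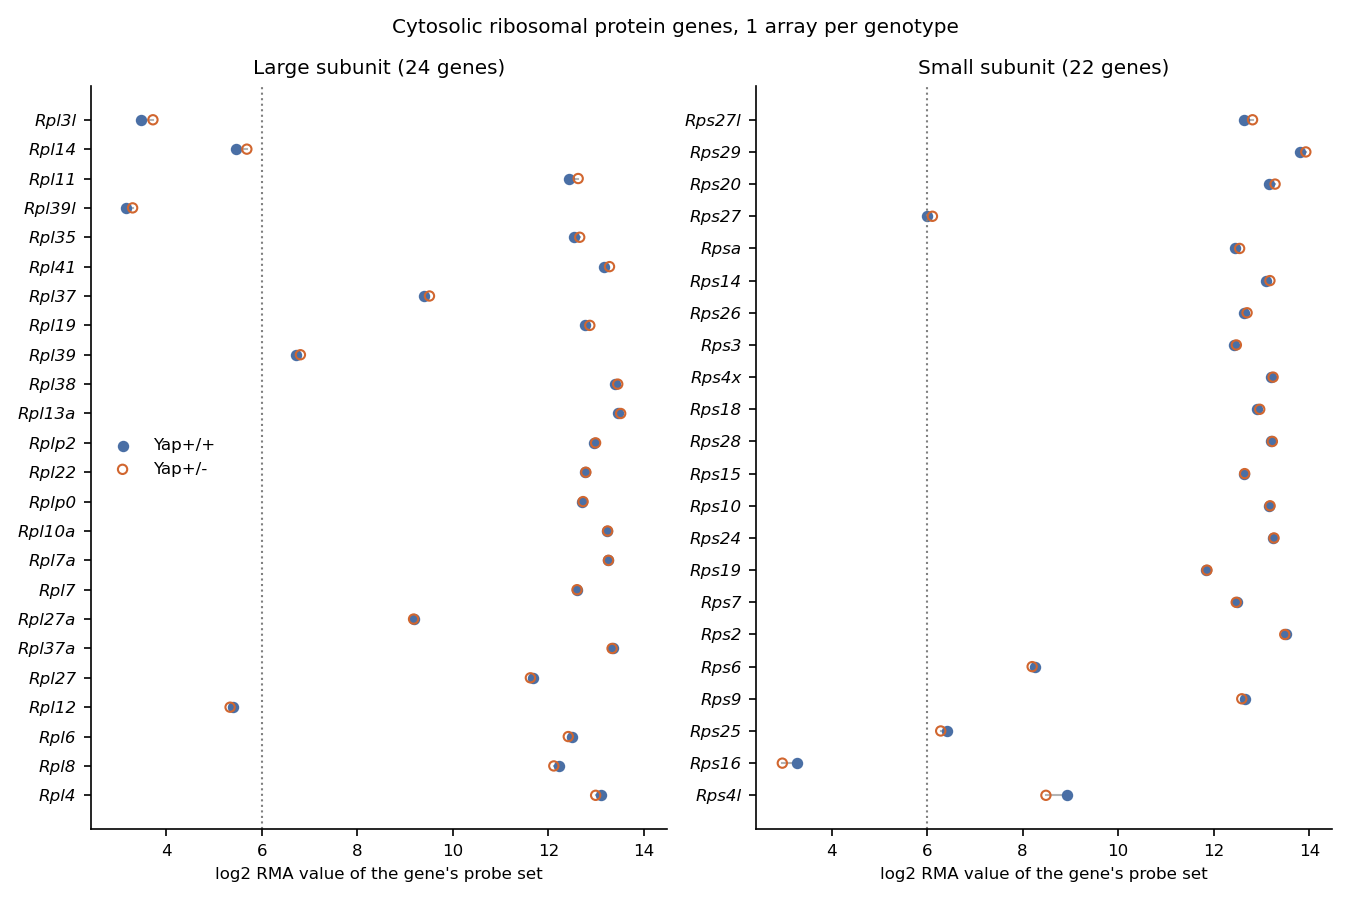
The log2 value of each gene's probe set is plotted for Yap+/+ (filled) and Yap+/- (open) with 1 array per genotype, large subunit left and small subunit right, each ordered by the difference, and the dotted line marks the minimum of 6. Most pairs of points overlap, Rps4l shows the widest gap among measured genes, and 5 genes lie under the minimum. Levels of different genes come from different probes and are not ranked.

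Both subunits leaned the same way, by similar amounts. Large subunit genes had a median difference of 0.017, with 13 of 20 higher, and small subunit genes 0.025, with 15 of 21 higher. The gap between these medians, -0.0078, was small beside the robust SD within either subunit, 0.084 and 0.075. Differences ran from -0.10 to 0.19 in the large subunit and from -0.45 to 0.18 in the small, and without Rps4l the lowest small subunit gene was Rps25 at -0.13. Proteins shared by the ribosomes of all domains of life had a median of 0.035 over 18 measured members, with 12 higher, and the other 23 had 0.020, with 16 higher. Within the small subunit, 8 of 9 measured genes of the head, which swivels as transfer RNA moves, were higher with a median of 0.025, and 6 of 10 genes of the body and platform with a median of 0.036.

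Among large subunit genes, the highest was Rpl11, whose protein binds Mdm2 together with Rpl5 when ribosome assembly is disturbed. Its only probe set with that symbol alone read 12.4 in the wild-type pool and 12.6 in the heterozygous pool, or 1.14-fold higher. A probe set of Rpl11 that lists several symbols read 4.79 and 4.70, under the minimum. Rpl5, listed only by probe sets that also name a pseudogene, read 13.3 on both arrays with a difference of 0.029. Its other measured probe sets read 8.14 and 8.45, a difference of 0.31, and 7.64 and 7.75, a difference of 0.10.

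Rpl35, at the mouth of the tunnel through which the new chain leaves, read 12.5 and 12.7, a difference of 0.12, and all 5 of its measured probe sets were higher, by 0.070 to 0.17. Rpl41, the shortest protein of the ribosome, read 13.2 and 13.3, and its second measured probe set gave 0.087 beside 0.11. Rpl37 read 9.40 and 9.51. Rpl19, which also lies at the tunnel mouth, read 12.8 and 12.9. These genes, with Rpl39 among the dim ones below, form the upper end of the large subunit.

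Its lower end was made of Rpl4, Rpl8 and Rpl6. Rpl4, which lines the tunnel, read 13.1 in Yap+/+ and 13.0 in Yap+/-, a difference of -0.10. Rpl8, close to the site of peptide bond formation, read 12.2 and 12.1, a difference of -0.0995, and Rpl6 read 12.5 and 12.4, a difference of -0.072. Of the 5 tunnel genes measured, 4 were higher and Rpl4 alone was lower, with a median of 0.085. The stalk, which recruits elongation factors, was flat on both members, with Rplp0 at 12.7 on both arrays (0.013) and Rplp2 at 13.0 on both (0.031).

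Among small subunit genes, Rps29 read 13.8 and 13.9, Rps20 read 13.2 and 13.3, and Rpsa, also known as the laminin receptor, read 12.4 and 12.5. Their differences were 0.12, 0.12 and 0.10, and each further measured probe set of Rps29 and Rps20 was also higher. Rps6 read 8.25 and 8.20 on its probe set used. Its brightest probe set that lists several symbols read 13.5 on both arrays, with a difference of -0.010. The other measured ones of that kind gave -0.012 to 0.12. Rps2, at the entry of the messenger RNA channel, read 13.5 on both arrays with a difference of -0.035. Rps19, the gene most often mutated in Diamond-Blackfan anaemia, read 11.8 in Yap+/+ and 11.9 in Yap+/-, a difference of 0.013. Of the 10 genes of this inherited red cell failure that were measured, 8 were higher, with a median of 0.022, Rps7 and Rpl27 being lower by 0.017 and 0.050 on the log2 scale.

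**Figure D2:**
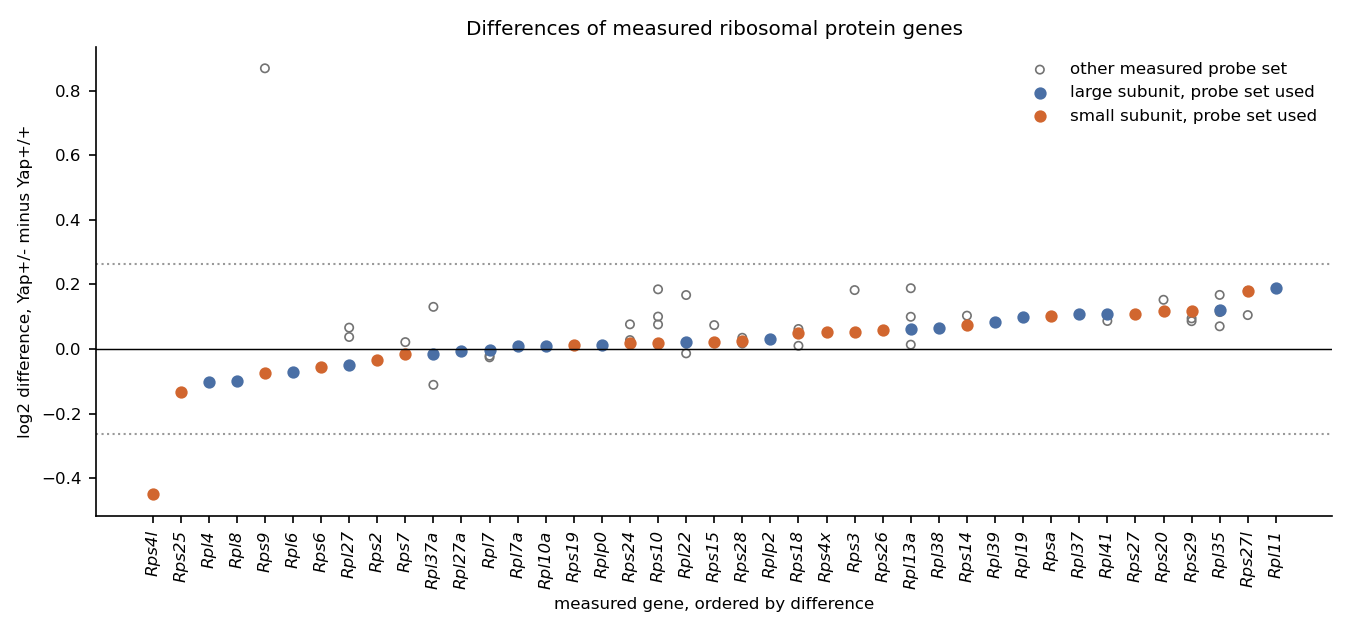
The log2 difference, Yap+/- minus Yap+/+, is plotted for the 41 measured genes in order, filled blue for the large and orange for the small subunit, with open circles for further measured probe sets of the same gene and dotted lines at 1.2-fold. Only Rps4l crosses a dotted line on the probe set used, and the open circle far above the rest, at 0.87, is the second probe set of Rps9.

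Rps9, which lies near the entry of the messenger RNA, gave opposite answers on its probe sets. The one with the highest mean read 12.7 in Yap+/+ and 12.6 in Yap+/-, a difference of -0.075. The second read 11.05 in Yap+/+ and 11.9 in Yap+/-, a difference of 0.87 or 1.83-fold, and the third, under the minimum, read 5.39 and 5.15. The gap of 0.94 between the first pair was matched or exceeded by the 2 brightest probe sets of 5 genes, Rps9 included, among 3406 genes with at least 2 measured probe sets, whose robust SD was 0.17. The second probe set has the suffix x, given by the manufacturer where some probes may bind other transcripts. The first has the suffix s, given where a set reads several genes, so neither is marked as reading Rps9 alone.

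The other members had smaller gaps between probe sets. Of 19 members with several measured probe sets, the range of differences within a gene had a median of 0.058, and apart from Rps9 it was at most 0.24, in Rpl37a, whose 3 probe sets gave 0.13, -0.016 and -0.11. In 5 of the 19, Rps9, Rpl37a, Rpl22, Rpl27 and Rps7, probe sets differed in sign. The 2 brightest probe sets of a member disagreed with a robust SD of 0.077.

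Counted by probe set, a larger share was higher than by gene. Of 100 probe sets with a member's symbol alone 78 were measured, and 61 of these were higher in Yap+/-, or 78.2%, against 47.9% of all such measured probe sets on the array, with medians of 0.056 and -0.0031. Probe sets of 1 gene share their transcript and are not independent. The share differed by kind of probe set: 33 of 37 with the suffix x were higher, with a median of 0.086, 19 of 25 with the suffix a, given where a set reads several transcripts of a gene, with a median of 0.031, and 8 of 13 without a suffix, with a median of 0.021. Of the 3 with the suffix s, given where a set reads several genes, 1 was higher, with a median of -0.013. Counted by gene, 11 of 13 measured members with the suffix x were higher, with a median of 0.075, and 10 of 15 with the suffix a, with a median of 0.013. Without a suffix 6 of 11 were higher, with a median of 0.013, and with the suffix s 1 of 2. No share over all measured probe sets of each kind is given here. The part of the kind of probe set in these shares was not tested.

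Copies of ribosomal protein genes stood at both ends. Rps4l, a copy of the X-linked Rps4x, has a single probe set, without a suffix, whose value was 8.94 in Yap+/+ and 8.49 in Yap+/-, or 1.37-fold lower. Of the 9299 measured genes 117 had a difference as low or lower, or 1.26%. Rps4x itself read 13.2 on both arrays, with a difference of 0.053. The parent and the copy differed in direction on these probe sets. A second probe set of Rps4x, under the minimum, read 4.58 and 4.33. With the mean of its probe sets Rps4x was at -0.095, the same direction as Rps4l.

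Rps27l, a copy of Rps27 that p53 is known to induce, read 12.6 in Yap+/+ and 12.8 in Yap+/-, a difference of 0.18 or 1.13-fold. Its other 2 measured probe sets gave 0.18 and 0.11, so all 3 were higher. Rps27 read 6.00 and 6.11 on its only own probe set, close to the minimum. On a probe set that also lists the retrogene Rps27rt it read 11.75 in Yap+/+ and 11.98 in Yap+/-, a difference of 0.24. Parent and copy were both higher.

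Rpl22 is a further parent whose copy is measured. It read 12.8 on both arrays, with a difference of 0.020, and its other probe sets gave 0.17 and -0.013. Rpl22l1, which the symbol rule leaves out and whose messenger RNA the Rpl22 protein is known to hold down, read 11.4 in Yap+/+ and 11.8 in Yap+/-, a difference of 0.39 or 1.31-fold, on its only probe set. Rpl7 read 12.6 on both arrays, and its 3 probe sets gave -0.0025, -0.021 and -0.026. Its relative Rpl7l1, a nucleolar assembly factor also outside the rule, gave -0.050, 0.12 and 0.53 on 3 probe sets, the last reading 6.21 and 6.74. The copies Rpl3l, known from muscle, and Rpl39l, known from testis, read 3.46 and 3.72, and 3.16 and 3.29, levels below the array's median of 4.92 at which a signal above background is not shown.

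Besides these 2 copies, Rps16, Rpl12 and Rpl14 were under the minimum, with values in Yap+/+ of 3.27, 5.40 and 5.46 and in Yap+/- of 2.97, 5.33 and 5.68. Rps27, with a mean of 6.06, lay just inside the minimum and Rpl14, with 5.57, just outside. Rps16, Rpl12, Rpl14 and Rps27 encode proteins of the cytosolic ribosome, and their low values belong to the single probe set that the annotation gives to the gene alone. A further 110 probe sets list a ribosomal protein gene together with pseudogenes or other loci, and 29 ribosomal protein genes of the annotation, among them Rpl3, Rpl5, Rpl10 and Rplp1, are found only there. A probe set of this kind can read messages of all the loci it lists.

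On such probe sets Rps16 read 13.9 on both arrays, with a difference of 0.047 in place of -0.30. Rpl12, near the base of the stalk, read 12.1 and 12.3, with 0.22 in place of -0.068, and Rpl14 read 12.4 and 12.5, with 0.15 in place of 0.23. Rps25, which many viral internal ribosome entry sites require, read 12.7 in Yap+/+ and 12.8 in Yap+/-, with 0.035 in place of -0.13. Rpl39, which lines the tunnel, read 13.6 and 13.9, with 0.27 or 1.21-fold in place of 0.085. The sign changed for Rps16, Rpl12 and Rps25, each of which had been lower on a dim probe set, for Rpl27a (0.033 in place of -0.0050) and, the other way, for Rpl37 (-0.039 in place of 0.11).

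**Figure D3:**
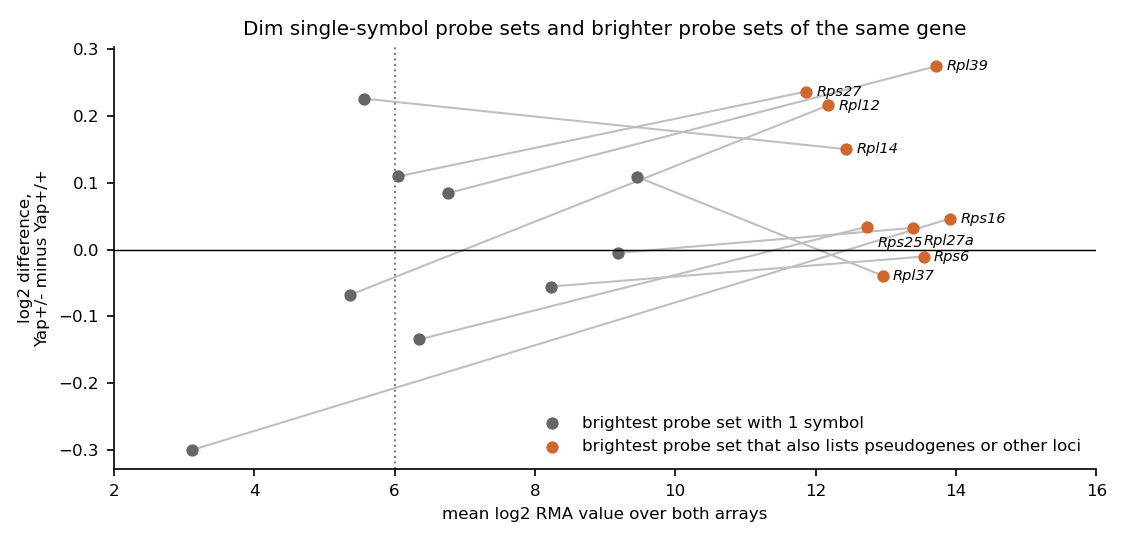
For 9 genes the log2 difference is plotted against the mean log2 value of the brightest probe set with the gene's symbol alone (grey) and of the brightest that also lists other loci (orange), joined by a line, with the minimum of 6 dotted. Rps16, Rpl12, Rps25 and Rpl27a move from below to above zero, Rpl37 moves the other way, and Rpl39 and Rps27 reach the highest differences.

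Of the 110 probe sets 95 were measured, and 79 of them were higher in Yap+/-, with a median of 0.055. Among all 480 measured probe sets with several symbols 59.8% were higher, and among the 385 without a ribosomal protein gene 54.0%, with a median of 0.017. With probe sets that list exactly 1 ribosomal protein gene taken in, 69 genes were measured, with a median of 0.046, at 0.039 for 42 large and 0.0495 for 27 small subunit genes. This wider set was chosen after the values were seen. At its upper end stood Rpl39, Rps27, Rpl12, Rpl11, Rps27l, Rps15a (0.18) and Rpl23a (0.17), and at its lower end Rps4l, Rpl4, Rpl8, Rps2 (-0.096) and Rpl3 (-0.093), so that the core proteins Rpl3 and Rpl4 were both on the lower side.

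Other listed sets, mostly of protein synthesis genes, lay nearer to an even split. Mitochondrial ribosomal protein genes, whose products serve the separate ribosome of the mitochondrion, were higher in 41 of 76 cases, with a median of 0.016 and a robust SD of 0.14, wider than the 0.080 of the cytosolic genes. Genes known for the same pyrimidine start, translation factors with Npm1, Nap1l1, Tpt1 and Hnrnpa1, were higher in 9 of 15 cases. Their median was 0.0072 and their robust SD 0.035, narrower than that of the cytosolic ribosomal genes. No share is given here for the translation factors alone. Eef1b2 (0.061) and Eif3k (0.048) were highest, and Eif3l (-0.17) and Eef1a1 (-0.12), the factor that delivers transfer RNA, were lowest. Of 34 measured ribosome biogenesis genes 14 were higher, and their median was -0.022, with none past 1.2-fold. Of these, Polr1c, a subunit of RNA polymerases I and III, read 8.69 and 8.90 and Utp4 read 7.69 and 7.89, while Nop58, which guides ribosomal RNA methylation, read 6.72 and 6.46 and Bysl read 6.93 and 6.69. Whether the sets differ was not tested.

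Of the genes that control the production or translation of ribosomal proteins, 8 of 11 listed were measured, 5 of them higher, with a median of 0.078. Eif4ebp1, the repressor of cap-dependent translation that mTOR inactivates, read 10.4 in Yap+/+ and 10.7 in Yap+/-, a difference of 0.31. Eif4e, the cap-binding protein it holds, read 9.02 and 8.69, a difference of -0.34. Larp1 read 10.1 on both arrays, and Larp4 read 8.50 and 8.70. Myc, an activator of ribosomal protein genes, read 5.73 and 5.15, under the minimum, so its fold is not exact. Of the ribosomal proteins outside the symbol rule, Fau (0.016) and Rps3a1 (-0.032) stayed within the range of the members.

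**Figure D4:**
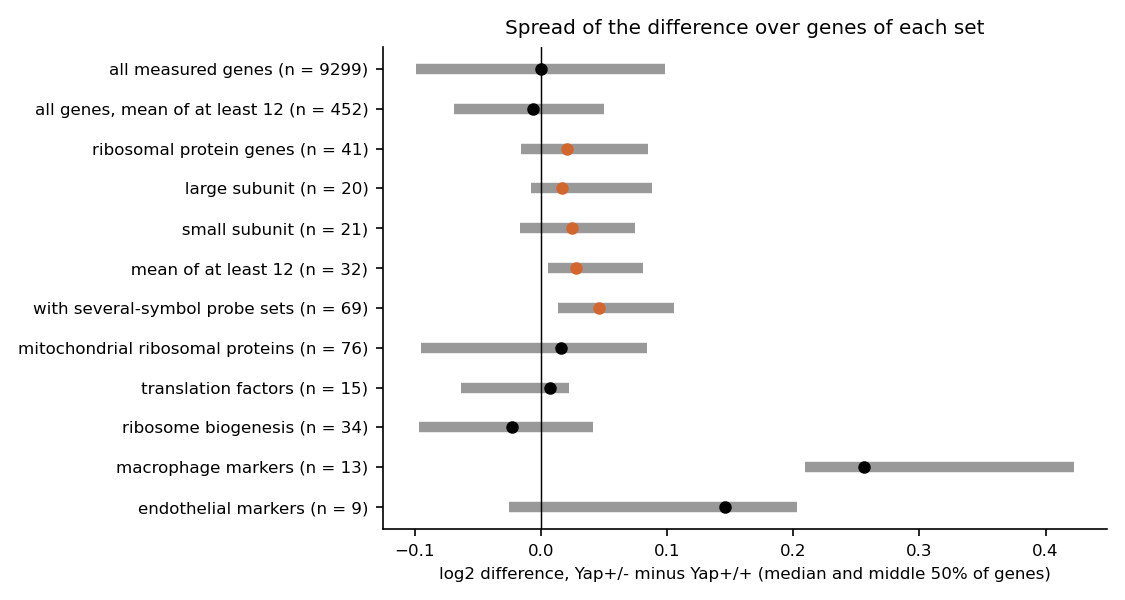
The median (point) and the middle 50% of genes (bar) of the log2 difference, Yap+/- minus Yap+/+, are plotted for measured genes of each set, cytosolic ribosomal protein sets in orange and others in black, with the number of genes in brackets. The cytosolic ribosomal sets have narrow bars with medians from 0.017 to 0.046, while macrophage markers lie at 0.26. The bar labelled translation factors, whose set also holds Npm1, Nap1l1, Tpt1 and Hnrnpa1, is also narrow.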

How the data were processed

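Biotin-labelled RNA, primed at its 3-prime end, of 1 pool of 5 livers per genotype was read on 1 array each. The authors deposited log2 values per probe set, made with RMA and Partek 6.5 per the submitters' processing notes; no source used here gives their settings. RMA makes both distributions nearly alike, so a difference in total RNA is largely removed. The table held 45101 probe sets from 2.49 to 15.2, of which 34945 had 1 symbol in the platform annotation, 932 several and 9160 none listed. All 46 members matched the RefSeq gene table. With 1 sample per genotype no test was made; genes were counted by size of difference, and the 2 arrays limit the precision. Members and lists were chosen with earlier results of these data known. Named genes were the 6 highest and lowest measured members, listed paralogues, stalk genes, Rpl5 and Rpl11, members under the minimum, those whose probe sets disagreed in sign and the extremes of each list; other genes named were chosen after their values were seen. Lists of lymphocyte, erythroid and pancreas markers had 2, 1 and 1 measured members, too few to describe. The counting was tested on simulated data. Promoter windows are RefSeq's (GRCm38.p6). Alternatives changed the minimum, the choice of probe sets, the scaling and the threshold. Software was pandas 2.3.3 and numpy 2.4.6 under Python 3.11.15, with statsmodels 0.14.6 for lowess and matplotlib 3.10.9 for figures.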

Additional observations from a re-analysis of the deposited data

Results flagged for a closer look

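The second probe set of Rps9, which represents no gene in the comparison, was higher in Yap+/- than in Yap+/+ by 0.87 on the log2 scale, while the probe set used for the gene differed by -0.075. It was the only one of 132 measured ribosomal probe sets outside the comparison that differed by at least 1.5-fold. Over the whole array, 224 of 14437 measured probe sets with 1 symbol and 8 of 480 with several symbols did so.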

How the results depend on the processing

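The median difference of the members stayed positive under every alternative, between 0.0052 after a further quantile normalisation, where 25 of 41 genes were higher, and 0.046 with probe sets of several symbols added, where 54 of 69 were. It was 0.032 without a lowess trend over level (29 of 41 higher) and 0.021 on the 13 genes with a measured probe set without a suffix (8 higher). The medians of the large and small subunit also stayed positive, the lower at 0.0041 after quantile normalisation. The count of genes at least 1.2-fold lower was 2 without a minimum, when Rps16 joined Rps4l, and 0 at 1.5-fold and at 2-fold, and the count higher was 1, Rpl39, with probe sets of several symbols. Of 155 differences of 19 named genes under the alternatives, 153 moved by less than 0.17, the disagreement between probe sets over all genes, and 6 changed sign. Rps9 was 0.18 as the mean of its probe sets and Rpl39 was 0.27 with several symbols. This count does not measure stability, because 0.17 is larger than most of the differences and than the members' own disagreement of 0.077. Rps25 moved by less than 0.17 and still went from -0.13 to 0.035. Rps4x did so too, from 0.053 to -0.095 as the mean of its probe sets. Changing the minimum or centring on the median also left each gene's value as it was. No paired analysis was possible because each genotype was 1 pool and the labels carry no replicate numbers.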
